A study of Mus musculus with 17 samples.

Results

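The AP-1 immediate early genes were described in bulk RNA-seq of mouse dorsal hippocampus. The 8 genes Fos, Fosb, Fosl2, Jun, Junb, Jund, Atf3 and Maff were chosen by symbol, and all 8 were found among the 24498 gene symbols of the count table. Mice were either wild type (WT) or constitutive knockouts (KO) of Acss2, whose product turns acetate into the acetyl-CoA used to acetylate histones. Heterozygous pairs were bred first, and mice of each genotype were then obtained by mating their homozygous offspring. At 6 months of age they had been injected into the right dorsal hippocampus with pathological tau purified from the brains of people with Alzheimer's disease (Tau) or with phosphate-buffered saline (PBS), and the study examined them 6 months later. The 12 male libraries fell into WT PBS, WT Tau, KO PBS and KO Tau with 3 each, and the 5 female libraries into KO Tau with 3 and WT Tau with 2, so there was no female PBS group among the 17 libraries. RNA was taken from slices that held CA1, CA2, CA3 and the dentate gyrus, and only RNA with a poly(A) tail was sequenced. The labels list perfusion with PBS and paraformaldehyde before the RNA step, whereas the study's methods give it for histology alone. No source used here tied a library to more than a replicate number, so p-values measure the spread between libraries, and in such bulk tissue fewer cells of a type and less RNA per cell cannot be told apart.

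AP-1 is a family of transcription factors that bind DNA as pairs through a basic leucine zipper. Proteins of the Jun family can pair with each other or with proteins of the Fos family, which need a Jun partner. Atf3 and the small Maf protein Maff can also pair with members of neighbouring zipper families. Most of these genes are immediate early genes: in the hippocampus their mRNA is known to rise within minutes of neuronal firing, seizure or exposure to a new place, through calcium and MAP kinase signalling to factors such as CREB and SRF that are already bound at their promoters, and to decay within hours.

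The libraries held 14183131 to 22463635 counts. Levels are given as CPM, the reads of a gene per 1000000 reads counted in its library. Acss2 ran from 3.07 to 8.81 CPM among the 9 KO libraries and from 44.0 to 54.6 CPM among the 8 WT libraries, which matched their labels. All markers checked for dentate granule cells (7 genes), CA1 (5), CA2 (4) and CA3 (3) pyramidal cells had counts in every group. Some male KO libraries stood apart in these and other markers. The summed level of the 7 dentate granule markers ran from 136 to 587 CPM within male KO PBS, lowest in replicate 752 and highest in replicate 751, and from 158 to 464 CPM within male KO Tau, lowest in replicate 712 and highest in replicate 711. Markers of striatum (7 genes) summed to 462 CPM in male KO PBS replicate 752, and markers of choroid plexus (10 genes) to 4074 CPM in male KO Tau replicate 713. Male KO Tau replicate 711 was the highest male library in astrocyte markers (7 genes, 7869 CPM) and in oligodendrocyte markers (8 genes, 7682 CPM), and the lowest of all 17 in heat shock genes (9 genes, 1743 CPM).

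Levels were set against each other per length, as CPM divided by the exon length in kilobases (RPKM). Jund was the most abundant AP-1 transcript, with a median of 103 RPKM over the 17 libraries. It was followed by Junb (38.5 RPKM), Jun (33.4), Fos (12.8), Fosl2 (5.92) and Fosb (2.43), with Atf3 (0.637) and Maff (0.607) at the bottom. In each library the Jun family therefore made up most of the pool, 83.2% to 94.3% of the RPKM summed over the 8 genes. Only Jund and Junb did not overlap over the libraries among neighbours in this order, with Jund at 72.6 to 122 RPKM and Junb at 11.8 to 71.2 RPKM, and this rested on a Jund gene model that starts inside the RefSeq gene. Over the RefSeq spans of these intronless genes the medians were 59.6 RPKM for Jund and 48.2 RPKM for Junb, and the ranges overlapped. Every other pair of neighbours overlapped, and Atf3 and Maff changed places when the longest transcript was taken as the length.

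The summed Fos family (Fos, Fosb and Fosl2) stood at a median of 0.134 of the summed Jun family (Jun, Junb and Jund) in RPKM. This value and the shares of the pool took the union of exons as length. Over its RefSeq span Jund had a median of 59.6 RPKM instead of 103. On the longest transcripts the medians of Fosl2 (8.76 RPKM), Fosb (4.01), Fos (14.3) and Junb (49.0) were higher than on the union of exons. The ratio was not recomputed on such lengths. Both extremes of this ratio were male KO Tau libraries, 0.0561 in replicate 711 and 0.199 in replicate 712. In male WT PBS the ratio was 0.165 ± 0.0260 (SD, n = 3) and in male KO Tau 0.121 ± 0.0722 (SD, n = 3), so the spread within male KO Tau was larger than the distance between the means.

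**Figure D1:**
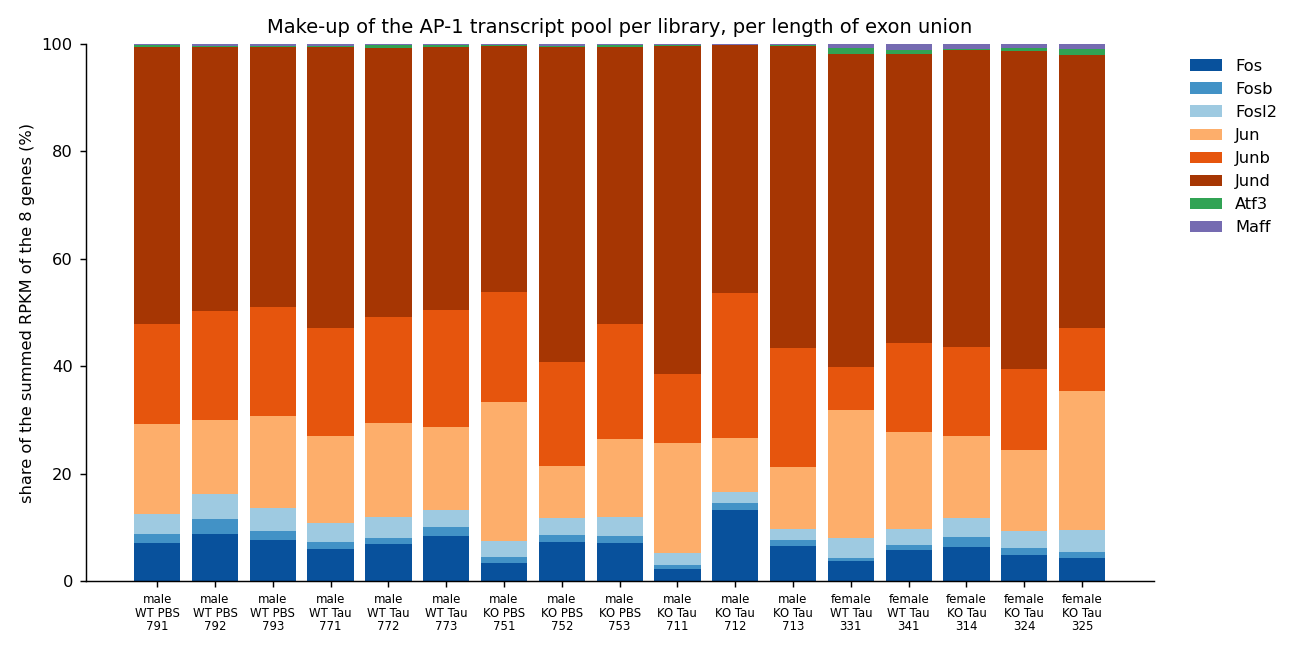
Share of each AP-1 gene in the RPKM summed over the 8 genes (y axis, percent, with the union of exons as length), for each of the 17 libraries (x axis, group and replicate number). The Jun family (orange to brown) held 83.2% to 94.3% of the pool, and the Fos family (blue) held 5.30% in male KO Tau replicate 711 and 16.6% in replicate 712.

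The correlations below include male KO Tau replicates 711 and 712, extreme in Fos, and male KO PBS replicates 751 and 752, extreme in Jun. In these correlations Fos, Fosb and Junb varied together and Jun apart from them. The sequences just before the starts of these 4 genes are therefore shown. Each is the 250 bases before the RefSeq start on the GRCm38.p6 assembly, read 5′ to 3′ on the strand of the gene, and the choice of genes was made after their levels were seen. Capitals mark TGACG, the core of the cAMP response element (CRE) at which CREB binds, and in Jun the letters TGACATCA, a variant AP-1 site known from the Jun promoter. The Fos sequence is chr12:85473640-85473889 on the plus strand, Fosb chr7:19310046-19310295 on the minus strand, Junb chr8:84978749-84978998 on the minus strand and Jun chr4:95052223-95052472 on the minus strand.
Fos: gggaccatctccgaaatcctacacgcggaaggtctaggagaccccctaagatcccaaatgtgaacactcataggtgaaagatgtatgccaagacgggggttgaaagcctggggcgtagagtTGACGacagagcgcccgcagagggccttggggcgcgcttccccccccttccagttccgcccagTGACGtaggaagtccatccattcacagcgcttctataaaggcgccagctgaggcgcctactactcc
Fosb: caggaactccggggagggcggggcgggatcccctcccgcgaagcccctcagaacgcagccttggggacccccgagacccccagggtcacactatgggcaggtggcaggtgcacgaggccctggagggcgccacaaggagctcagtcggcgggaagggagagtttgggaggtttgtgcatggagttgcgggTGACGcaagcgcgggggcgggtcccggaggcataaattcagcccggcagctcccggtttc
Junb: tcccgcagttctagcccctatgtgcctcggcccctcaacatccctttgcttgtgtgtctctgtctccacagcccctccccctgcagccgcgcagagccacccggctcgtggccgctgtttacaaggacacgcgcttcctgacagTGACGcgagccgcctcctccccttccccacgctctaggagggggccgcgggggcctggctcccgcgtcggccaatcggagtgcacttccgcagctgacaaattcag
Jun: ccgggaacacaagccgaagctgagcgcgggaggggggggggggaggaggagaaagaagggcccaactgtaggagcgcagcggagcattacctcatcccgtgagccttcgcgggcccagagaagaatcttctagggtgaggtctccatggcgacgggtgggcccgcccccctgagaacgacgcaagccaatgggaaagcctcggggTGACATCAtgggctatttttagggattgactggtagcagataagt
Both strands were searched for 6 motifs in this window of all 32851 RefSeq promoters. A gene was counted if any of its starts had a match, while the shares are per promoter. Maff had 3 starts, with its matches before starts 2 and 3. TGACG stood in 5 of the 8 genes (Fos, Fosb, Junb, Atf3 and Maff) and in 17.8% of all promoters, and the Fos promoter held it at 129 to 125 and at 66 to 62 bases before the start. Jund and Fosl2 held no TGACG, although their r within male groups with Fos, Fosb and Junb was 0.66 to 0.83. Atf3, with r of 0.19 to 0.30 to the same genes, and Maff, with -0.25 to -0.01, held it. The Jund window, 70697489 to 70697738 on chromosome 8, ended upstream of the GENCODE start of Jund at 70698949. The bases just before that GENCODE start were not searched. A link between motif and correlation was not tested. The full CRE, TGACGTCA, which contains TGACG, stood before a start of Maff and in 1.55% of all promoters. TGACATCA stood in Jun and Maff and in 2.93% of all promoters, the AP-1 site TGANTCA in none of the 8 genes and in 6.75%, the TATA box TATAAA in Fos alone and in 12.4%, and the SRF-binding CArG box in none of the 8 and in 1.47%. These are matches of letters within 250 bases and say nothing of binding. Sites farther upstream, for SRF or other factors, were not searched.

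Fos (ENSMUSG00000021250.13, chromosome 12, 85473890 to 85477273, plus strand, in GENCODE M21 on GRCm38 as for all positions of genes here), the founding Fos family gene and the common marker of recently active neurons, was the most variable AP-1 gene, with an 8.85-fold range of CPM over the 17 libraries. It was at 33.0, 48.5 and 39.6 CPM in male WT PBS replicates 791, 792 and 793 and at 30.1, 31.5 and 45.6 CPM in male WT Tau replicates 771, 772 and 773. It was at 16.3, 29.4 and 34.6 CPM in male KO PBS replicates 751, 752 and 753 and at 9.27, 82.1 and 32.6 CPM in replicates 711, 712 and 713 of male KO Tau. The lowest and the highest Fos level of all 17 libraries thus lay within male KO Tau, and the 4 male groups overlapped. In females it was at 12.9 and 21.4 CPM in WT Tau replicates 331 and 341 and at 23.3, 18.7 and 14.5 CPM in KO Tau replicates 314, 324 and 325, where all 5 libraries were below every male WT library.

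Fosb (ENSMUSG00000003545.3, chromosome 7, 19302696 to 19310051, minus strand) encodes FosB and its truncated form deltaFosB, which is known to build up in hippocampal neurons under repeated activity. The counts per gene did not separate these forms. Fosb was at 20.6, 39.7 and 22.2 CPM in male WT PBS replicates 791, 792 and 793, at 16.3, 15.2 and 24.4 CPM in male WT Tau replicates 771, 772 and 773, at 13.2, 13.8 and 15.9 CPM in male KO PBS replicates 751, 752 and 753 and at 7.25, 22.0 and 13.9 CPM in replicates 711, 712 and 713 of male KO Tau. All 3 male KO PBS libraries were below all 3 male WT PBS libraries, and male KO Tau ran from below all of them up into the range of WT PBS. Female libraries were at 5.73 and 9.70 CPM in WT Tau replicates 331 and 341 and at 17.8, 12.4 and 9.02 CPM in KO Tau replicates 314, 324 and 325, which overlapped.

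Fosl2 (ENSMUSG00000029135.10, chromosome 5, 32135801 to 32157842, plus strand), which encodes the Fos-related protein Fra-2, was the steadiest Fos family gene, with a 2.85-fold range. It was at 72.5, 105.6 and 87.9 CPM in male WT PBS replicates 791, 792 and 793 and at 72.5, 72.0 and 71.2 CPM in male WT Tau replicates 771, 772 and 773. It was at 57.3, 52.1 and 69.8 CPM in male KO PBS replicates 751, 752 and 753 and at 37.1, 50.9 and 43.4 CPM in replicates 711, 712 and 713 of male KO Tau. The male KO Tau libraries lay below every other male library, and the male KO PBS libraries lay below every male WT library. In females the genotypes overlapped, with 52.7 and 46.7 CPM in WT Tau replicates 331 and 341 and 50.8, 51.7 and 58.7 CPM in KO Tau replicates 314, 324 and 325.

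Junb (ENSMUSG00000052837.6, chromosome 8, 84974484 to 84978718, minus strand), an inducible Jun family gene, was at 85.1, 109.9 and 101.1 CPM in male WT PBS replicates 791, 792 and 793, at 98.0, 88.7 and 116.9 CPM in male WT Tau replicates 771, 772 and 773 and at 94.4, 75.6 and 101.8 CPM in male KO PBS replicates 751, 752 and 753. Male KO Tau held the lowest and the highest male value, 49.5 CPM in replicate 711 and 163.8 CPM in replicate 712, with 107.2 CPM in replicate 713, as it did for Fos. Female libraries were at 27.1 and 61.1 CPM in WT Tau replicates 331 and 341 and at 58.9, 56.7 and 38.5 CPM in KO Tau replicates 314, 324 and 325. All 5 were below every male library but male KO Tau replicate 711.

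Jun (ENSMUSG00000052684.4, chromosome 4, 95049034 to 95052222, minus strand) encodes c-Jun, the main partner of Fos and a target of JNK kinases. It was level over the male WT libraries, at 106.5, 103.3 and 120.0 CPM in WT PBS replicates 791, 792 and 793 and at 110.4, 109.7 and 115.7 CPM in WT Tau replicates 771, 772 and 773. It was widest in male KO PBS, at 166.5, 52.7 and 95.3 CPM in replicates 751, 752 and 753, and it was at 110.3, 84.5 and 77.3 CPM in replicates 711, 712 and 713 of male KO Tau. The lowest and highest Jun libraries of the series, male KO PBS replicates 752 and 751, were also those with the lowest and highest dentate granule markers. Female levels were 111.0 and 91.7 CPM in WT Tau replicates 331 and 341 and 74.8, 77.8 and 117.6 CPM in KO Tau replicates 314, 324 and 325, within the range of the males.

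Jund (ENSMUSG00000071076.6, chromosome 8, 70698949 to 70700616, plus strand), the Jun family gene that is expressed constantly rather than induced, was the least variable, with a 1.68-fold range. It was at 171.7, 192.3 and 176.1 CPM in male WT PBS replicates 791, 792 and 793 and at 185.6, 164.2 and 190.1 CPM in male WT Tau replicates 771, 772 and 773. It was at 153.7, 167.6 and 176.9 CPM in male KO PBS replicates 751, 752 and 753 and at 171.9, 203.3 and 198.0 CPM in replicates 711, 712 and 713 of male KO Tau. The 4 male groups overlapped. The 5 female libraries ran from 121.0 to 160.8 CPM, below every male library except male KO PBS replicate 751.

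Atf3 and Maff were near the floor of these libraries, with 9 to 56 and 14 to 100 reads per library. Atf3 (ENSMUSG00000026628.13, chromosome 1, 191170296 to 191218039, minus strand), a stress-induced zipper protein best known from injured neurons, was at 1.10, 1.55 and 0.895 CPM in male WT PBS replicates 791, 792 and 793, at 1.55, 2.03 and 1.53 CPM in male WT Tau replicates 771, 772 and 773, at 0.862, 0.665 and 1.37 CPM in male KO PBS replicates 751, 752 and 753 and at 0.568, 0.625 and 0.988 CPM in replicates 711, 712 and 713 of male KO Tau. The male KO Tau libraries were all below the male WT Tau libraries. Female libraries were at 3.13 and 2.49 CPM in WT Tau replicates 331 and 341 and at 0.846, 2.46 and 3.30 CPM in KO Tau replicates 314, 324 and 325, and 4 of the 5 were above every male library.

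Maff (ENSMUSG00000042622.14, chromosome 15, 79346621 to 79359076, plus strand), a small Maf protein with no activation domain of its own, was at 1.42, 1.81 and 1.61 CPM in male WT PBS replicates 791, 792 and 793, at 1.61, 0.931 and 1.57 CPM in male WT Tau replicates 771, 772 and 773, at 1.27, 1.33 and 1.37 CPM in male KO PBS replicates 751, 752 and 753 and at 1.01, 0.730 and 0.988 CPM in replicates 711, 712 and 713 of male KO Tau. Male KO Tau lay below male WT PBS and male KO PBS and overlapped male WT Tau. In females it was at 3.01 and 4.45 CPM in WT Tau replicates 331 and 341 and at 3.67, 2.94 and 3.61 CPM in KO Tau replicates 314, 324 and 325, and all 5 were above all 12 male libraries.

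**Figure D2:**
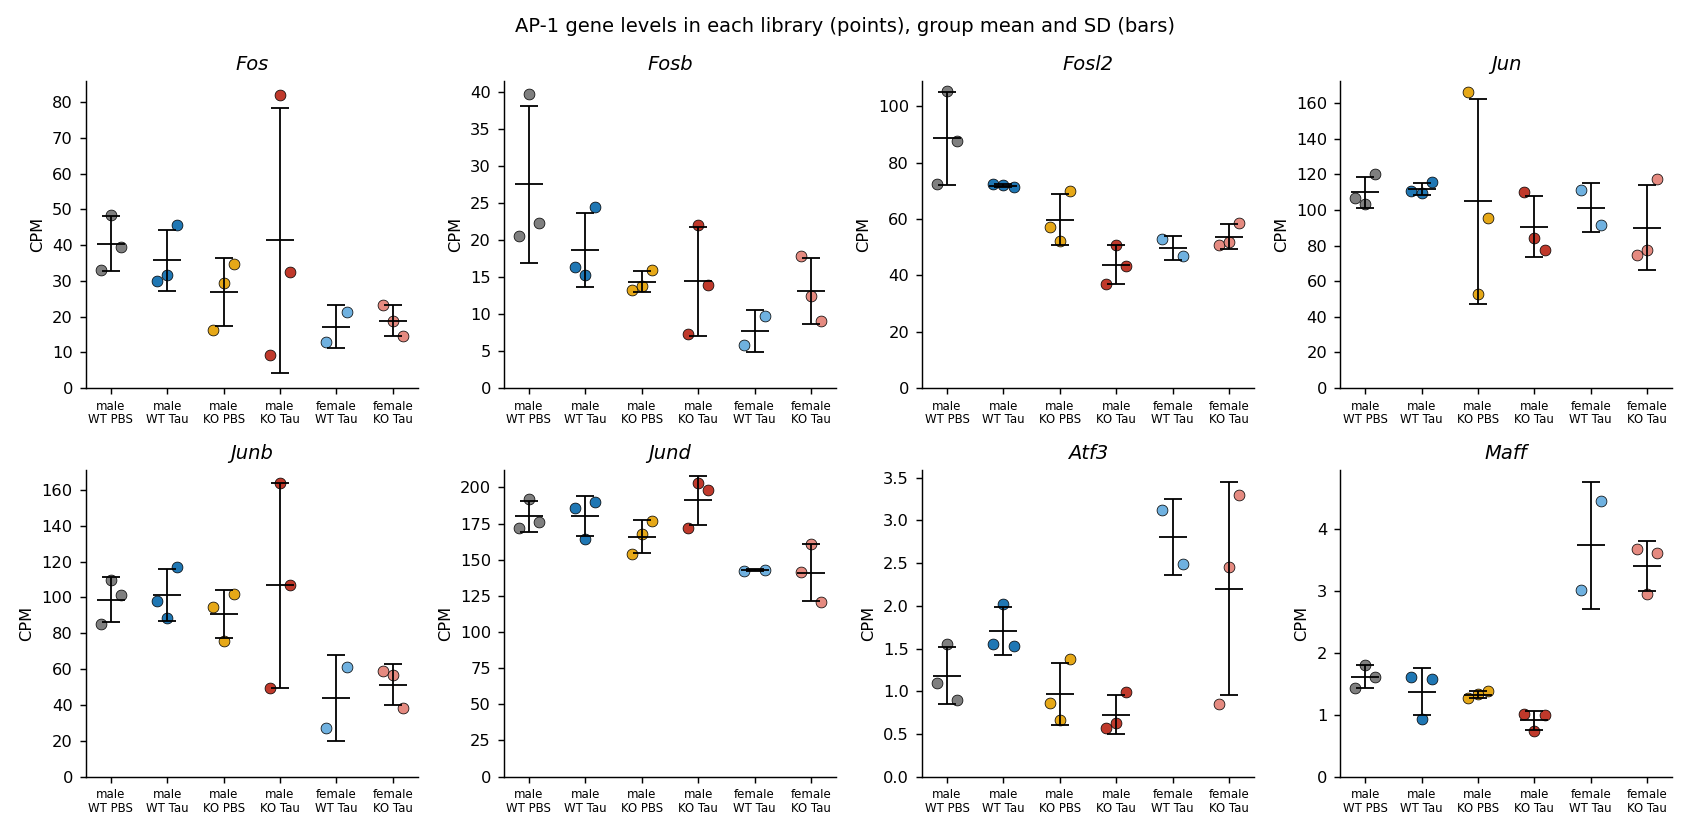
CPM (y axis, from 0) of the 8 AP-1 genes in each library (points) by group (x axis), with the group mean and SD (bars, n = 3, or 2 for female WT Tau). Fosl2 was at 37.1 to 50.9 CPM in male KO Tau, below every other male library, and Fos ran from 9.27 to 82.1 CPM within that group.

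The first question was whether AD tau alone altered AP-1 transcripts in WT males. In male WT Tau against male WT PBS, none of the 8 genes passed a false discovery rate (FDR) of 0.05 over all 15098 genes tested (edgeR quasi-likelihood F-test, two-sided, used for all fold changes here unless another tool is named). No other gene did either (0% of genes). None of the 8 had an unadjusted p under 0.05, against 1.86% of all genes, and none separated the groups without overlap, against 12.2%. Log2 fold changes ran from -0.58 for Fosb to 0.50 for Atf3, with a median of -0.10 against -0.0085 over all genes.

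The loss of Acss2 without tau was read in male KO PBS against male WT PBS. None of the 8 passed the FDR (0.00662% of all genes did, which was Acss2 alone). Their log2 fold changes were all below 0, from -0.89 for Fosb to -0.0086 for Jun, with a median of -0.23 against 0.0095 over all genes. The share of all genes below 0 was not counted. Several of the 8 genes varied together, as given below, so their signs are not independent. At an unadjusted p under 0.05 stood 2 of the 8, against 4.42% of all genes. These were Fosl2, with a log2 fold change of -0.52 (SE 0.15, FDR 0.999), and Fosb, with -0.89 (SE 0.36, FDR 0.999). Fosb, Fosl2 and Maff were lower in KO PBS without overlap, 3 of 8 genes, where 11.7% of all genes did not overlap in either direction. All 7 striatum markers were higher on average in KO PBS, with a median log2 fold change of 0.96, 3 at an unadjusted p under 0.05 and none called, and their sum was 462 CPM in replicate 752 against 70.8 and 93.1 CPM in replicates 751 and 753. Their part in the AP-1 values was not tested.

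The combination of AD tau and Acss2 loss was the study's main contrast. In male KO Tau compared with male WT PBS, Fosl2 had the strongest evidence of the 8 genes: its mean was 43.8 ± 6.89 CPM (SD, n = 3) against 88.6 ± 16.6 CPM (SD, n = 3), which was 2.02-fold lower, or -1.01 on the log2 scale (SE 0.16). With an FDR of 0.162 it did not pass, and neither did the other 7, where 0.00662% of all genes (Acss2 alone) did. For Maff the log2 fold change was -0.82 (SE 0.27, FDR 0.783) and for Fosb -0.93 (SE 0.36, FDR 0.783), so that 3 of 8 genes were at an unadjusted p under 0.05, against 6.33% of all genes. Fosl2 and Maff were lower without overlap, 2 of 8 genes against 14.4% of all genes in either direction. All 10 choroid plexus markers were higher on average in these male KO Tau libraries, with sums of 59.9 to 4074 CPM against 49.0 to 75.3 CPM, and all 7 dentate granule markers lower, with sums of 158 to 464 CPM against 256 to 386 CPM, none of them called. Their part in the AP-1 values was not tested.

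For the rest of the AP-1 genes this contrast gave wide errors. The log2 fold change of Atf3 was -0.68 (SE 0.35, FDR 0.816). Jun had -0.27 (SE 0.31, FDR 0.907), Fos 0.035 (SE 0.55, FDR 0.995), Junb 0.12 (SE 0.32, FDR 0.964) and Jund 0.092 (SE 0.097, FDR 0.899). Of these, Jund was bounded most closely, to between -0.10 and 0.29 within 2 SE, while the same bounds for Fos ran from -1.07 to 1.14. The sign for Fos and Junb was not stable: without male KO Tau replicate 712 their log2 fold changes were -0.92 and -0.32, and without replicate 711 they were 0.50 and 0.45. That of Fos was also -0.10 without male WT PBS replicate 791 and -0.039 with limma voom. Of these 5 genes only Jun was called by any of 22 alternatives, by 1 of them.

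The call for Fosl2 depended on the tool. DESeq2 on the 12 male libraries called Fosl2 alone of the 8 genes, at an adjusted p of 2.02e-05 (0.075% of all genes called), limma voom with quality weights at 0.0426 (0.0729%), and edgeR on all 17 libraries at 0.0265 (0.0192%). Over all 22 alternatives the adjusted p ran from 9.24e-06 to 0.878 and 6 called it, while the log2 fold change stayed between -1.15 and -0.86. The study used DESeq2 on fewer male KO Tau libraries than were deposited, so DESeq2 was also run on only these groups, with all libraries and without each male KO Tau library in turn. Each fit that leaves a library out has the tool and the number of male KO Tau libraries of the study. It called Fosl2 alone of the 8 with all libraries (0.113% of all genes) and without replicate 712 (0.27%), and none of the 8 without replicate 713, the library with the highest choroid plexus markers, where the adjusted p of Fosl2 was 0.108. Without replicate 711 it called Fosl2 and Jun (log2 fold change -0.44, SE 0.10, adjusted p 0.00111), with 5.33% of all genes.

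In male KO Tau against male WT Tau, the effect of the knockout under tau, none of the 8 passed the FDR (0.00662% of all genes, Acss2 alone). At an unadjusted p under 0.05 stood 2, against 4.71% of all genes. Fosl2 was at 43.8 ± 6.89 CPM (SD, n = 3) against 71.9 ± 0.660 CPM (SD, n = 3), with a log2 fold change of -0.69 (SE 0.16, FDR 0.927), and Atf3 at 0.727 ± 0.228 CPM (SD, n = 3) against 1.70 ± 0.283 CPM (SD, n = 3), with -1.18 (SE 0.34, FDR 0.927). Both were lower without overlap, 2 of 8 genes against 12.6% of all genes in either direction. All 10 choroid plexus markers were higher on average in male KO Tau than in male WT Tau, with a median log2 fold change of 1.91. All 7 dentate granule markers (median -0.51) and all 3 CA3 markers (median -0.54) were lower, and none of these markers was called. Their part in the AP-1 values was not tested. DESeq2 on only these groups called Fosl2 alone of the 8 with all libraries (0.144% of all genes) and without male KO Tau replicate 712 (0.0778%), Fosl2 and Jun without replicate 711 (7.13%), and none of the 8 without replicate 713. Adjusted p-values for Fosl2 over the 22 alternatives ran from 4.86e-06 to 1.00.

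In male KO Tau against male KO PBS, the effect of tau in knockouts, none of the 8 passed the FDR (0% of all genes), and Fosl2 alone, with a log2 fold change of -0.49 (SE 0.16, FDR 0.55), was at an unadjusted p under 0.05, against 7.95% of all genes. Fosl2 and Maff were lower without overlap, 2 of 8 genes against 9.01% of all genes in either direction. The log2 fold change of Fosl2 was thus negative in each of the 5 male pairs of groups, which share libraries and are not independent of each other. In male KO Tau against male KO PBS all 10 choroid plexus markers were higher on average, 7 at an unadjusted p under 0.05. All 7 striatum and all 3 CA3 markers were lower, 2 and 1 at that threshold, and none of these markers was called. Their part in the AP-1 values was not tested.

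For the interaction of genotype and treatment in males none passed the FDR (0% of all genes) and none was at an unadjusted p under 0.05 (4.18% of all genes), with log2 estimates from -0.95 (Atf3) to 0.77 (Fos). The estimate for Fosl2 was -0.17 (SE 0.22). Averaged over genotype, Tau against PBS gave a log2 fold change of -0.41 for Fosl2 (SE 0.11, FDR 0.888) and of -0.42 for Maff (SE 0.19, FDR 0.888), 2 of 8 genes against 5.38% of all genes at an unadjusted p under 0.05 and 0% at the FDR. Averaged over treatment, KO against WT gave -0.61 for Fosl2 (SE 0.11, FDR 0.397), -0.70 for Atf3 (SE 0.24, FDR 0.945) and -0.62 for Fosb (SE 0.25, FDR 0.945), 3 of 8 genes against 4.58% at an unadjusted p under 0.05 and 0.00662% (Acss2 alone) at the FDR. DESeq2 called Fosl2 in this average at an adjusted p of 0.00150 (0.05% of all genes), and its adjusted p over the 17 alternatives ran from 0.00150 to 0.995.

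In females under tau the knockout was compared in female KO Tau against female WT Tau, on 3 and 2 libraries in a fit of the 11 Tau libraries. None of the 8 passed the FDR over 15419 genes (0.00649% did, which was Acss2 alone), none was at an unadjusted p under 0.05 (2.89% of all genes), and all 8 overlapped, where 16% of all genes did not. Fosl2 was at 53.7 ± 4.34 CPM (SD, n = 3) against 49.7 ± 4.24 CPM (SD, n = 2), which gave 0.16 on the log2 scale (SE 0.12). The difference between the sexes in the knockout effect on Fosl2 under tau was 0.85 on the log2 scale (SE 0.17, FDR 0.978). It was the only 1 of the 8 genes at an unadjusted p under 0.05 there, against 2.94% of all genes, and none passed the FDR (0% of all genes). None of 16 alternatives called it, with adjusted p-values of 0.0627 to 1.00.

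Female and male libraries under tau differed widely. Of the 8 AP-1 genes 4 passed the FDR, against 23.8% of all genes (from 628 of 15739 genes without female WT Tau replicate 331 to 6290 of 15450 without male KO Tau replicate 711), and 7 were at an unadjusted p under 0.05, against 39.8%. Maff rose in females, by 1.61 on the log2 scale (SE 0.21, FDR 0.00269), or 3.05-fold, and so did Atf3, by 1.07 (SE 0.30, FDR 0.0279). Junb was lower by a log2 fold change of -1.18 (SE 0.30, FDR 0.0211) and Jund by -0.45 (SE 0.10, FDR 0.0151). Fos, with -1.15 (SE 0.43, FDR 0.0722), Fosb, with -0.76 (SE 0.30, FDR 0.0833), and Fosl2, with -0.19 (SE 0.083, FDR 0.118), did not pass. Maff was called by each of 16 alternatives, Jund by 15, Junb by 14 and Atf3 by 10. Without female WT Tau replicate 331 Maff alone was called, with Jund at an FDR of 0.0697 and Junb at 0.0993, and without male WT Tau replicate 773 Junb was at 0.0549. Atf3 lost its call without any 1 of male WT Tau replicates 771 and 773, male KO Tau replicate 712, female WT Tau replicate 331 and female KO Tau replicates 324 and 325.

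These differences came with others between the same libraries. All female libraries carried replicate numbers of a separate series, so sex and whatever else separated these series cannot be told apart. The 6 endothelial markers summed to 285 to 357 CPM in females under tau and to 164 to 250 CPM in males under tau, with 5 of 6 called higher. The 7 astrocyte markers summed to 8332 to 9348 CPM in females, to 7869 CPM in male KO Tau replicate 711 and to 4228 to 5052 CPM in the other male libraries under tau, with 4 of 7 called higher. Replicate 711 was also the male library with the lowest Fos and Junb. Of the 5 CA1 pyramidal markers 2 were called lower in females, with sums of 188 to 498 CPM against 354.3 to 615.8 CPM in males under tau. All 5 thalamus markers were higher on average in females, and 1 was called. They summed to 55.1 to 334 CPM in females and to 73.3 to 145 CPM in males under tau. Of 7 microglia markers 2 were called higher. Of 10 choroid plexus markers only 1 was higher on average in females, with a median log2 fold change of -1.855 and none called. None of these markers was at 0 in any group. Their part in the AP-1 differences was not tested.

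**Figure D3:**
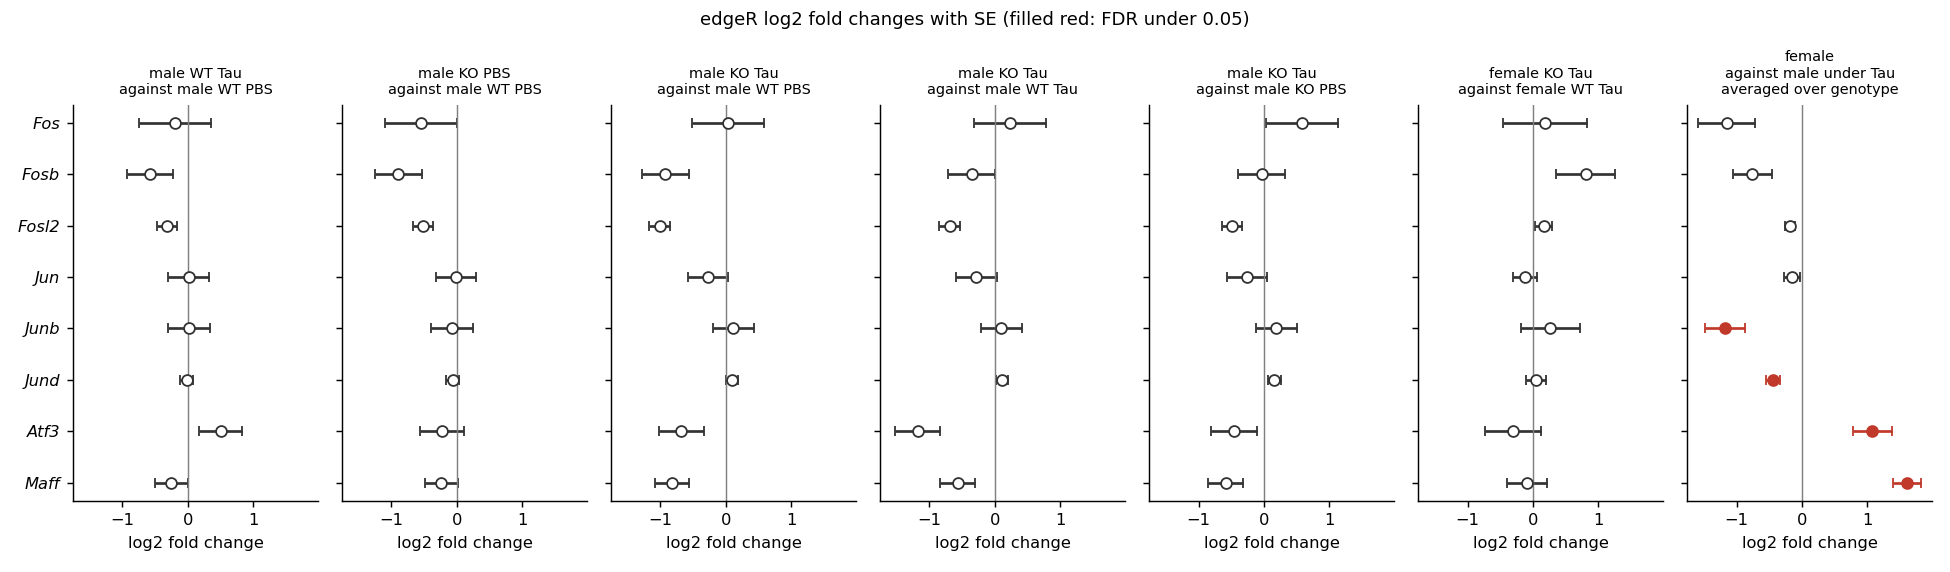
Log2 fold change (x axis) of each AP-1 gene (rows) with its SE (bars) in 7 comparisons (panels), from edgeR. Filled red points passed an FDR of 0.05, which only Junb, Jund, Atf3 and Maff did, in females against males under tau. Fosl2 sat at -1.01 in male KO Tau compared with male WT PBS.

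Within the male groups the AP-1 genes varied with each other to different degrees. Correlations are given as a description, over the deviations of log2 CPM from the group means in 12 male libraries, which share their depth and dissection. Pearson's r was 0.90 between Fos and Junb, 0.89 between Fosb and Junb and 0.88 between Fos and Fosb. Male KO Tau replicates 711 and 712 held the lowest and highest male levels of Fos (9.27 and 82.1 CPM) and Junb (49.5 and 163.8 CPM). Values of r without these libraries were not computed, so how far they set the correlations is not known. Jund followed these 3 at 0.79 (Fos), 0.83 (Fosb) and 0.72 (Junb), and Fosl2 at 0.66 (Fos), 0.77 (Fosb) and 0.73 (Junb). Jun did not share this pattern, with r from -0.44 (with Fos) to 0.03 (with Fosl2), and neither did Maff, which reached at most 0.37 (with Jund). The lowest and highest Jun levels, 52.7 and 166.5 CPM, lay in male KO PBS replicates 752 and 751. Values of r without these 2 libraries were not computed either.

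**Figure D4:**
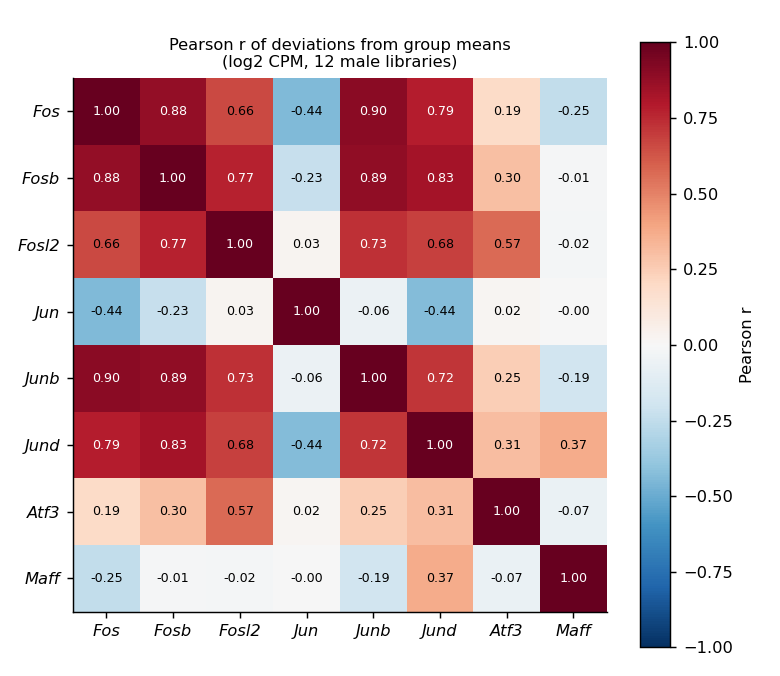
Pearson's r (colour and number) between the AP-1 genes (rows and columns), over the deviations of log2 CPM from group means in 12 male libraries. Fos, Fosb and Junb reached 0.88 to 0.90 with each other, and Jun -0.44 to 0.03 with the other genes. Male KO Tau replicates 711 and 712 and male KO PBS replicates 751 and 752 were included.

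The level of Jun was set against a dentate granule score, the mean log2 CPM of the 7 markers, after the 2 male KO PBS libraries at the ends of both had been seen. Over 12 male libraries, both taken as deviations from group means, Pearson's r was 0.888 (exact permutation within groups, 1296 rearrangements, p = 0.0895, or 0.383 after Benjamini-Hochberg adjustment over 8 genes) and Spearman's rho 0.52 (exact p = 0.225, adjusted 0.742). Male KO Tau replicate 712 and male KO PBS replicate 752, the farthest in score, were then left out of the correlation, and r was 0.845. The group means were still those of all 12 libraries, so this value is not free of the 2 libraries. The relation thus did not pass the test. Fos had the opposite sign, with r = -0.66 (exact p = 0.0957, adjusted 0.383) and rho = -0.52 (exact p = 0.205, adjusted 0.742). With the same libraries left out in that way, r for Fos was -0.69. For Fosl2 r was -0.11 (exact p = 0.784, adjusted 0.784) and rho -0.17 (exact p = 0.684, adjusted 0.742). Its low levels in male KO Tau came at scores of 5.67, 3.42 and 4.27 in replicates 711, 712 and 713. Deviations from group means leave out differences between groups. The part of dentate content in the group difference of Fosl2 was therefore not tested.

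**Figure D5:**
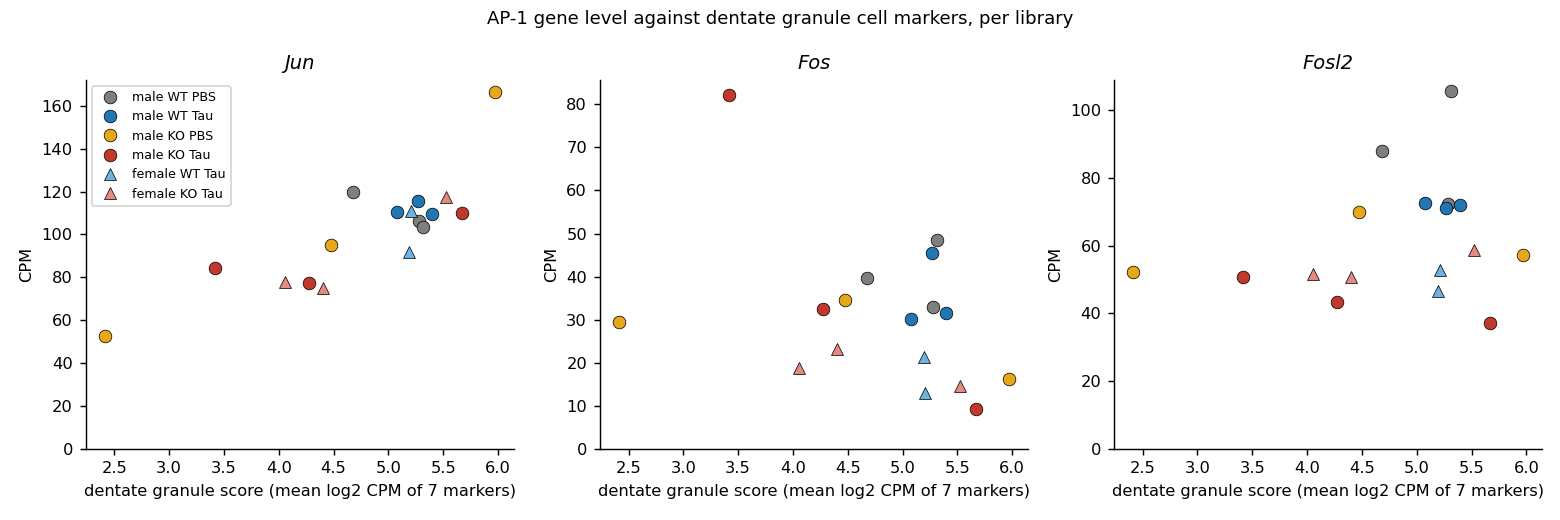
CPM (y axis, from 0) of Jun, Fos and Fosl2 in each library against the dentate granule score (x axis, mean log2 CPM of 7 markers). Circles are male and triangles female libraries, coloured by group. Male KO PBS replicate 752 was lowest on both axes for Jun, with 52.7 CPM at a score of 2.41, and replicate 751 highest, with 166.5 CPM at 5.97.

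The genes of most like pattern were taken from 15586 genes by Pearson's r of log2 CPM over all 17 libraries, as a description. Fos was most like Dusp1 (0.91), an immediate early phosphatase, and then Mboat7 (0.91) and Sh2d3c (0.90). Fosb was most like the immediate early genes Egr2 (0.94) and Egr4 (0.89) and the clock gene Per1 (0.88), and Fosl2 like Crkl (0.82), Per1 (0.82) and Cwc25 (0.77). Jun was most like Mcm6 (0.93), the dentate marker C1ql2 (0.93) and Sall2 (0.91). Junb was most like Svop (0.95), L1cam (0.94) and Dgcr14 (0.94), and Jund like Noc2l (0.89), C1qtnf4 (0.88) and Zfp628 (0.88). Atf3 was most like Plekhf1 (0.93), 4833423E24Rik (0.91) and Fhdc1 (0.88), and Maff like Hif3a (0.94), Edem3 (0.91) and Acer3 (0.91). In the 12 male libraries alone the 3 values for Maff were 0.61, 0.55 and 0.50, those for Jund 0.52, 0.71 and 0.77, and those for Fosb 0.92, 0.96 and 0.85.

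The partners and regulators of these factors were counted in male KO Tau compared with male WT PBS. Of 24 other AP-1 and related zipper genes 21 were tested and none passed the FDR. At an unadjusted p under 0.05 stood 1 (Ddit3, log2 fold change 0.26), where 6.33% of all genes did. The median log2 fold change was 0.037, against -0.0032 over all genes. Of 30 upstream kinases, SRF and CREB co-factors none passed and none was at an unadjusted p under 0.05, with a median of -0.053. Of 16 genes described as AP-1 targets 12 were tested, and again none passed either threshold (median 0.11). None of 9 heat shock genes did (median 0.025).

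Other immediate early genes were less even in that contrast. None of 30 passed the FDR, but 10 were at an unadjusted p under 0.05, against 6.33% of all genes. Of these 4 were higher and 6 lower. The median log2 fold change of the 30 was -0.14, against -0.0032 over all genes. The highest was Npas4, a neuronal activity factor, at 1.78 (SE 0.42, FDR 0.783), and the lowest Sik1, a CREB-induced kinase, at -1.23 (SE 0.20, FDR 0.162). Per1, named above as like Fosl2 and picked after its value was seen, was at -0.88 (SE 0.14, FDR 0.162). The estimates for Npas4 and Fosl2, both induced by activity, were of opposite sign in the same libraries. Neither passed the FDR, and Npas4 was picked as the highest of 30. How far its value rested on single libraries is not given here.

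In females against males under tau, 11 of the 30 other immediate early genes were called, 10 lower and 1 higher, beside 23.8% of all genes, with a median log2 fold change of -0.42 against -0.013 over all genes. Egr1 fell, by a log2 fold change of -1.61 (SE 0.29, FDR 0.00720), as did Ier2, by -1.15 (SE 0.29, FDR 0.0198), and Klf2, which is also made by endothelium, rose by 0.75 (SE 0.14, FDR 0.00735). Of the 30 upstream regulators 6 were called, a smaller share than over all genes, and all lower, among them Mapk14 at -0.39 (SE 0.086, FDR 0.0132). Among 14 AP-1 target genes tested 3 were called, also a smaller share than over all genes, and all higher: Plaur at 1.59 (SE 0.36, FDR 0.0135), Gal at 1.43 (SE 0.43, FDR 0.0339) and Vim at 0.82 (SE 0.16, FDR 0.00835). Of 22 other zipper genes 4 were called, again a smaller share, with Bach1 and Nfe2l2 higher and Bach2 and Jdp2 lower, and of 9 heat shock genes 3, with Hspe1 higher and Hspa1a and Hspa8 lower.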

How the data were processed

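Bulk poly(A) RNA-seq was analysed for 17 libraries. Per the study's methods and the submitters' processing notes, the authors aligned reads to GRCm38 (mm10) with STAR (2.5.2), used SAMtools (1.1) and counted reads per gene with HTSeq (0.9.1). The annotation release is not given in the sources used here. The authors deposited whole-number counts for each gene symbol, not normalized, in which reads from near-identical gene copies are uncertain. Symbols with no count numbered 4152 of 24498.

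CPM was computed as counts over the library total (with a prior count of 2 before log2 in correlations and scores), and RPKM on the union of exons in GENCODE M21 (GRCm38). At these totals 3 counts, the floor used here, corresponded to 0.134 to 0.212 CPM, and this covers counting error only. All genes passing edgeR's filterByExpr (minimum count 10, minimum total 15) were fitted with edgeR 4.0.16 (TMM factors, quasi-likelihood F-test) in R 4.3.3, as 1 fit of the 12 male libraries and 1 of the 11 Tau libraries, and p-values were adjusted by Benjamini-Hochberg over all genes tested. The script was tested on simulated data. Libraries were grouped by their titles, no 2 libraries agreed within counting noise, and the library totals set how precisely Atf3 and Maff are known. Alternatives were DESeq2 1.42.0, RLE factors, no filter, limma 3.58.1 voom with quality weights, other sets of libraries, each library left out, TMM-scaled levels and the longest transcript as length. Fold changes were given for all 8 genes in male KO Tau compared with male WT PBS and elsewhere for those with an unadjusted p under 0.05, the rest as a range. Values of Fosl2 in other comparisons were added after they were seen. The genes and the lists of partners, regulators, targets and markers were chosen with earlier results of these data known. Promoter sequences came from RefSeq (GRCm38.p6), where all 8 genes were matched.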

Additional observations from a re-analysis of the deposited data

How the results depend on the processing

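The number of AP-1 genes past an adjusted p of 0.05 was 0 in male KO Tau compared with male WT PBS and became 1 (Fosl2) with DESeq2 on the same libraries, limma voom with quality weights, 1 fit of all 17 libraries, DESeq2 on these groups alone, and that DESeq2 test without male KO Tau replicate 712, and 2 (Fosl2 and Jun) with it without replicate 711; 3 genes were at an unadjusted p under 0.05. Against male WT Tau it was 0 and became 1 (Fosl2) with DESeq2 on those groups alone, also without replicate 712, and 2 (Fosl2 and Jun) without replicate 711. In male KO against WT averaged over treatment it was 0 and became 1 (Fosl2) with DESeq2. In females against males under tau it was 4 and became 7 with limma voom, which called 6189 of 15419 genes. Leaving out each library took that count from 1, without female WT Tau replicate 331, to 7, without male KO Tau replicate 711, while over all genes 628 of 15739 and 6290 of 15450 were called. In the comparisons with 0 calls by edgeR, no library left out from the edgeR fit gave a call. The cause of these changes was not tested.

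In male KO Tau compared with male WT PBS the log2 fold change of Fos, 0.035, became -0.039 with limma voom, and -0.93 with DESeq2 on these groups alone without replicate 712. That of Junb, 0.12, became -0.32 there. With each library left out of the edgeR fit, Fos ran from -0.92 (without replicate 712) to 0.50 (without replicate 711) and Junb from -0.32 to 0.45, for the same libraries. Over all alternatives 459 of 493 log2 fold changes kept their direction and side of the threshold, 19 gained a call, 9 lost it and 6 changed sign. No paired analysis was possible because the groups share no replicate numbers. Depth limited Atf3 and Maff most, with as few as 9 and 14 reads in a library.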
